A study of Homo sapiens with 6 samples.

Results

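Intronic sites of 9 protein coding genes (GCNT1, UNC45B, PID1, PDE3A, INSIG2, HFM1, ANKRD30BL, C3orf85 and GALNTL6) carried a GAPDH peak under each of 3 culture media. The sites were selected on measured values: a gene was taken where an intronic peak away from annotated structural RNA stood in the galactose, the low glucose and the normal glucose list. After joining all peaks that overlap, 951 regions were left, and 105 of them (11.0%) held a peak of every list. The 9 sites are 9 of these 105 regions, and since presence in all lists chose them, it is given here as a description. Another region of the same genes, a further ANKRD30BL peak, stood in the low glucose list only. Member genes took up 9 rows of the galactose list, 11 of the low glucose list and 11 of the normal glucose list, which made 17 distinct peaks, each annotated to 1 gene.

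MOLM-13, a human acute myeloid leukaemia cell line, was cultured in galactose medium, in low glucose medium or in normal glucose medium. RNA crosslinked by UV light to glyceraldehyde-3-phosphate dehydrogenase (GAPDH, an enzyme of glycolysis) was pulled down with an antibody and sequenced, an assay called CLIP-seq. Each medium had 2 samples, and the deposited lists hold 1 joined set of peaks per medium, so no spread between samples can be given. Distinct peaks numbered 337 for galactose, 484 for low glucose and 495 for normal glucose, given as positions with a gene name, without read counts, strand or depth.

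Introns are transcribed with the rest of a gene and are cut out by splicing before the messenger RNA leaves the nucleus. They hold much of the genome's repeated sequence, including old copies of ribosomal RNA (rRNA). Ribosomal RNA is made in the nucleolus from repeated 45S units, each of which yields 18S rRNA for the small subunit of the ribosome and 28S rRNA for the large subunit. It is the most abundant RNA of a cell, and stretches of it that were copied elsewhere in the genome can be hard to tell from the original by sequence alone.

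The sequences of 8 sites are printed because the letters within them separate the sites into 2 kinds, with and without rRNA-like sequence. Sequences are from hg38, on the plus strand, over the part of each site that peaks of all 3 lists shared. In 6 sites, 5 of which are printed, a stretch aligns to 18S or 28S rRNA (taken from the 45S unit RNA45SN1 on chromosome 21), and capitals mark it. The 5 printed sites lie at chr1:91387449-91387605 (HFM1), chr2:132255498-132255624 (ANKRD30BL), chr2:229180921-229181021 (PID1), chr9:76571828-76571928 (GCNT1) and chr12:20551372-20551472 (PDE3A).
HFM1: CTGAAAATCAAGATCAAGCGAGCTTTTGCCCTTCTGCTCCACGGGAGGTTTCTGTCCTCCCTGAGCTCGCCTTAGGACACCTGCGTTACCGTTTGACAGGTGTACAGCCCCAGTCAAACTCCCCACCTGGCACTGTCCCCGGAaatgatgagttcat
ANKRD30BL: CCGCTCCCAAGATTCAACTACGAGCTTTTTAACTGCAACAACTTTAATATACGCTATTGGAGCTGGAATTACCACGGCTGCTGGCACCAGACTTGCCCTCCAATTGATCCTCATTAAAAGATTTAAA
PID1: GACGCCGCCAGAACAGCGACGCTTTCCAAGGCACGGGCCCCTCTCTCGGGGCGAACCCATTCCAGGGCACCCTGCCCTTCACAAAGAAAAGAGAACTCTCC
GCNT1: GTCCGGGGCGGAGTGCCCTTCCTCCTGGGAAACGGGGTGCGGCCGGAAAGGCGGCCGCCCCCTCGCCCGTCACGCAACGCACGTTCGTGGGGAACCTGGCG
PDE3A: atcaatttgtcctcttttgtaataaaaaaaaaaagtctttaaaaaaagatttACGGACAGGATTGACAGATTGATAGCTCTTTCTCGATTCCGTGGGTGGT

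For the closest of them, the 28S stretch that HFM1 matches (chr21:8445305-8445447, minus strand) is shown with its 1 differing base in capitals, and the 18S stretch that PDE3A matches (chr21:8438153-8438201, plus strand) has no base that differs.
RNA28SN1: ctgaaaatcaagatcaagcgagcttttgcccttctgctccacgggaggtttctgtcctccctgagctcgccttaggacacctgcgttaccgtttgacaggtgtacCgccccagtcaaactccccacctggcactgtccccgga
RNA18SN1: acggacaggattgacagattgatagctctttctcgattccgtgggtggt

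The other 3 sites aligned to none of the structural RNAs searched. They lie at chr2:118089555-118089656 (INSIG2), chr3:109119488-109119588 (C3orf85) and chr4:172017736-172017836 (GALNTL6). Capitals mark a short word that these sites share, on one strand or the other.
INSIG2: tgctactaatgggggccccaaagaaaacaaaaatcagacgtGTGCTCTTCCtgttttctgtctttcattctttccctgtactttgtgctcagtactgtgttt
C3orf85: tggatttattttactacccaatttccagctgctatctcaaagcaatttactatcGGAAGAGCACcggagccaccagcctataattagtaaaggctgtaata
GALNTL6: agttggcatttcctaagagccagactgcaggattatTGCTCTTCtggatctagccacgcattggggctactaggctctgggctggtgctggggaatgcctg

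**Figure D1:**
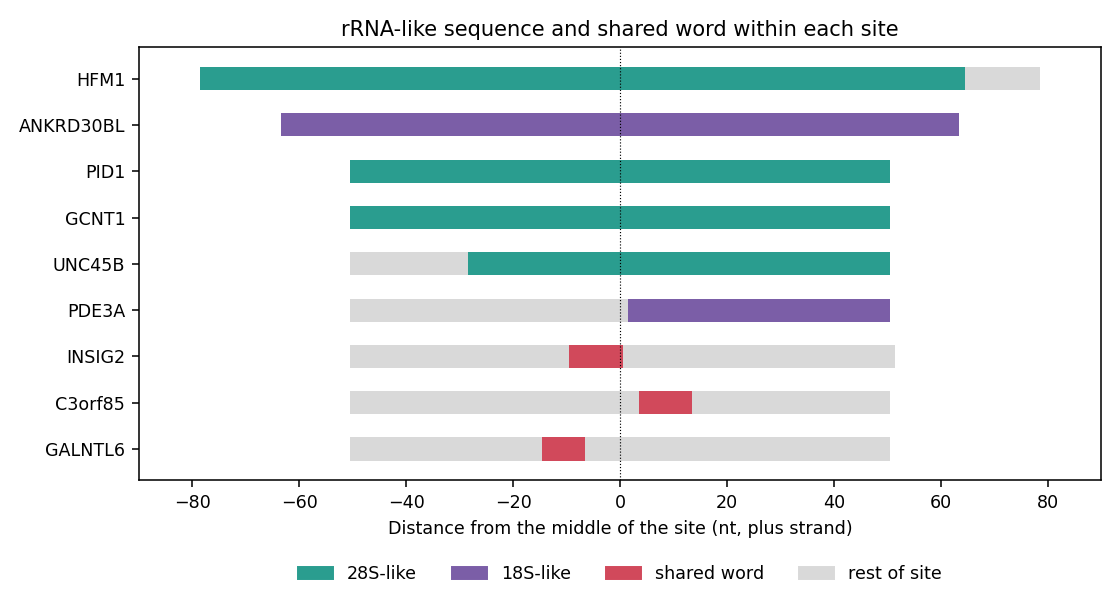
Each bar is the part of a site shared by the 3 lists, drawn by distance in nt from its middle on the plus strand; coloured parts mark 28S-like sequence, 18S-like sequence or the shared word, and grey marks the rest. The rRNA-like part covers the whole bar for ANKRD30BL, PID1 and GCNT1, 91.1% of it for HFM1 and 78.2% for UNC45B, while for PDE3A it begins 2 nt past the middle.

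HFM1, a DNA helicase needed for crossovers in meiosis, held the longest match within the part shared by all 3 lists. Of the 157 nt of its peak, 143 aligned to positions 4160 to 4302 of 28S rRNA with 99.3% identity. Around the site 366 nt of the intron were 28S-like, and most of the peak lay within that copy. The 14 nt at the right end of the peak lay outside the copy.

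ANKRD30BL, a gene of the ankyrin repeat domain 30 family, matched 18S rRNA along its whole peak: 127 nt at 95.3% identity, positions 571 to 697. RefSeq places an 18S rRNA pseudogene (LOC110467533, chr2:132254347-132256195) over this site, so by RefSeq the site does not lie away from annotated structural RNA. GENCODE release 44 has no structural RNA gene there. In a window of 4001 nt centred on the site, 3697 nt aligned to the 45S unit. The further peak of the low glucose list (chr2:132254686-132254814) lay in the same pseudogene and matched positions 1394 to 1522 of 18S rRNA over 129 nt at 93% identity.

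PID1, an adaptor protein with a phosphotyrosine-binding domain, matched 28S rRNA at positions 2619 to 2719, over the whole shared part of its peaks with 97% identity. GCNT1, the Golgi enzyme that builds the core 2 branch of O-linked glycans, matched positions 4859 to 4959, again over the whole shared part, with 95% identity. The GCNT1 peak of normal glucose, longer than this part, matched over 181 nt at 94.5% identity. That of galactose, longer still, aligned over 191 nt at 79.3% identity with 41 gaps. The 28S-like stretch spanned 259 nt of the PID1 intron and 297 nt of the GCNT1 intron, in each case more than the shared part of the peaks.

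UNC45B, a chaperone of muscle myosin, matched 28S rRNA close to its 5′ end, at positions 85 to 163, over 79 nt with 96.2% identity. The first 22 nt of the site lay outside the match. PDE3A, a phosphodiesterase that breaks down cAMP and is inhibited by cGMP, matched 18S rRNA at positions 1278 to 1326 over 49 nt without a mismatch, just under the minimum of 50 nt set for calling a match. The copy went on for 148 nt from just past the middle of the PDE3A peak, and the 52 nt on the other side of the peak, rich in A and T, did not align.

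With a match called at 50 nt or more and 80% identity or more, 5 of the 9 sites (55.6%, 95% Clopper-Pearson interval 21.2 to 86.3%) had a structural RNA match, and all 5 were to rRNA. PDE3A made a sixth when 30 nt sufficed. The shared part of none of the 9 matched a tRNA, snRNA, snoRNA, 7SL RNA or the mitochondrial genome at that setting. Only the neighbouring UNC45B peak of normal glucose did, over 51 nt at its right end that resemble 7SL RNA (94.1% identity) and a tRNA (82.4%). Among all 156 intronic regions of protein coding genes off annotated structural RNA genes, in any list, 35 (22.4%, interval 16.2 to 29.8%) had a structural RNA match and 17 (10.9%) an rRNA match. Leaving out the 10 regions of the 9 genes, 11 of 146 (7.53%) had an rRNA match. The share with any match was 8 of 12 among such regions in all 3 lists, 5 of 23 in 2 lists and 22 of 121 in 1 list. Of all regions in all 3 lists off annotated structural RNA genes, the 9 sites included, 9 of 22 (40.9%) had a match. The search library holds the annotated structural RNA genes, so a match is largely given for regions that lie on them. Among the 96 regions in all 3 lists that are not members, on or off such genes, 81 (84.4%) had one, and for 16 (16.7%) it was to rRNA. Over all 951 regions, again on or off such genes, 319 (33.5%) had a match. These are shares of regions with counting error only, and their differences were not tested.

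**Figure D2:**
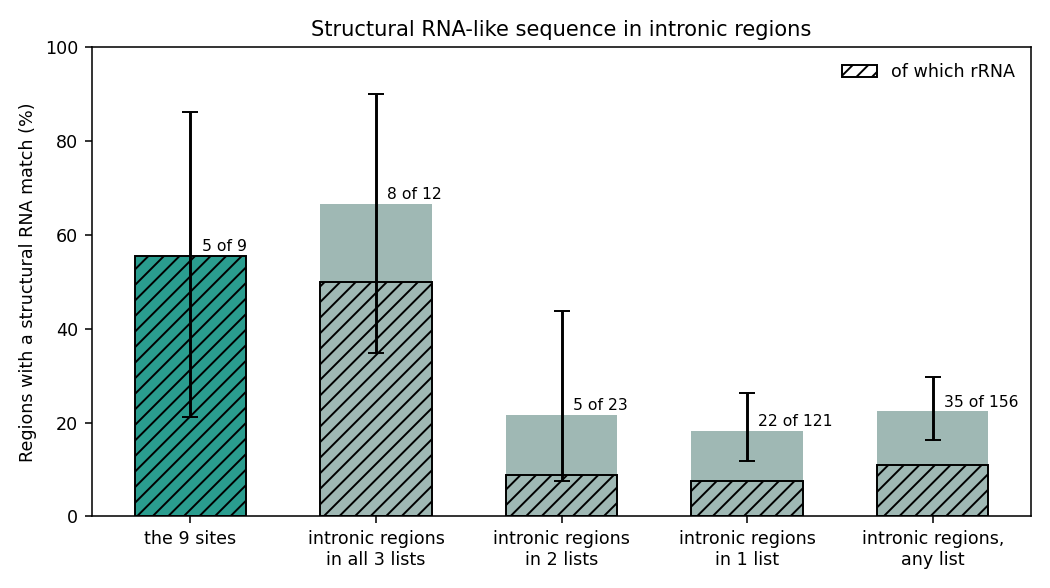
Bars give the percentage of regions with a structural RNA match (at least 50 nt at 80% identity), hatching the part that matched rRNA, and lines the 95% Clopper-Pearson interval over regions. The 9 sites and the 12 intronic regions in all 3 lists, which include them, stand at 55.6% and 66.7%, the regions in 2 lists, 1 list or any list between 18.2% and 22.4%.

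The words of the selection also fit intronic regions of other genes, among them SLCO5A1 and ENPP2. SLCO5A1, an organic anion transporter family member, had an rRNA match. ENPP2, the secreted enzyme autotaxin, matched 7SL RNA.

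The copies run in the direction of the host gene in 5 of the 6 rRNA-like sites. No such share over other intronic regions with an rRNA match is given beside this count. HFM1, ANKRD30BL and PID1 lie on the minus strand and their rRNA-like sequence reads on minus; GCNT1 and PDE3A lie on plus and theirs reads on plus. At UNC45B, on the plus strand, the 28S-like sequence reads on minus. The lists give no strand, so whether the crosslinked RNA came from the strand of the gene cannot be read from them.

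The same stretches of rRNA were looked up on the 18S and 28S genes of chromosome 21 in each list. The galactose list had 4 peaks on 18S and 8 on 28S genes, the low glucose list 5 and 5, and the normal glucose list 10 and 16. The GCNT1 stretch was met by a 28S peak in every list (2, 2 and 3 peaks, overlapping it by up to 97 nt). The PDE3A stretch was met by 18S peaks in every list (1, 1 and 2), though by no more than 19 nt. HFM1 and PID1 stood at the other end: no 28S peak of any list touched the stretch that either shared part matched, though both sites had a peak in every list.

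At UNC45B and ANKRD30BL the lists differed. The UNC45B stretch was met by 1 galactose peak (31 nt), no low glucose peak and 1 normal glucose peak (60 nt). The ANKRD30BL stretch was met by none in galactose or low glucose and by 1 in normal glucose (35 nt). The further ANKRD30BL peak, found in low glucose only, matched an 18S stretch that held 2 peaks of the low glucose list, 2 of the normal glucose list and none of the galactose list.

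**Figure D3:**
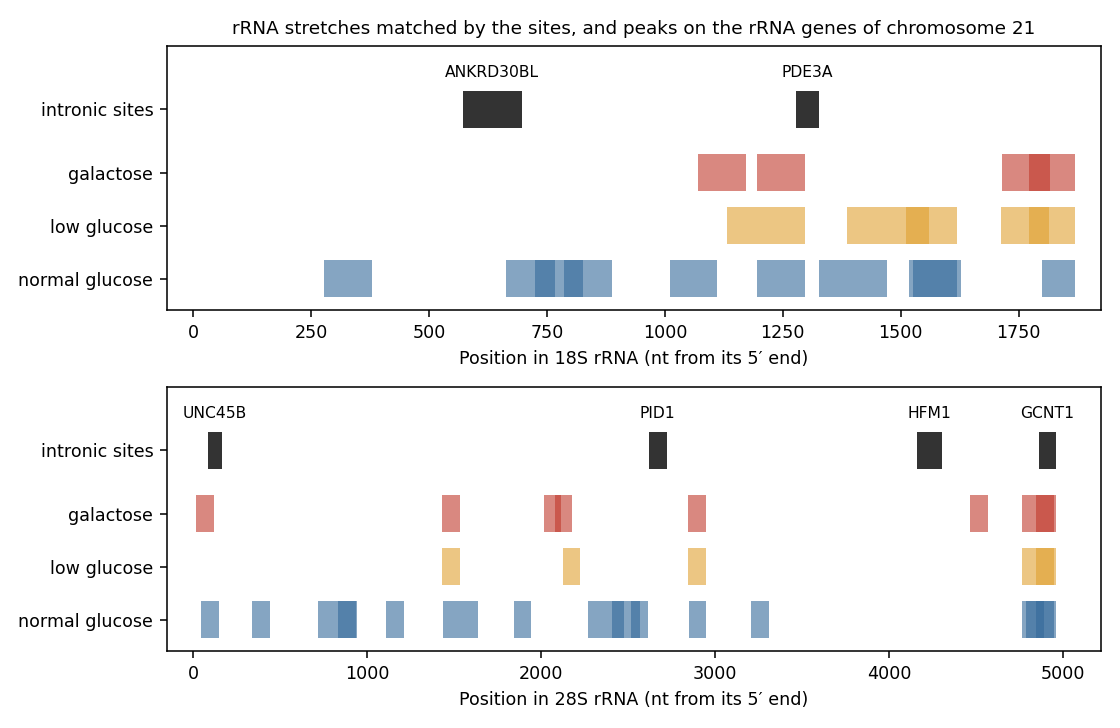
The upper panel spans 18S and the lower panel 28S rRNA, in nt from the 5′ end. Black bars mark the stretches matched by the intronic sites and coloured bars the peaks of each list on the rRNA genes of chromosome 21; GCNT1 lies under peaks of all 3 lists, HFM1 and PID1 under none.

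INSIG2, C3orf85 and GALNTL6 were unlike the others. INSIG2 is a protein of the endoplasmic reticulum that holds back the activation of cholesterol synthesis, GALNTL6 belongs to the family of enzymes that start O-linked glycans, and C3orf85 is named only as an open reading frame. INSIG2 and C3orf85 had no second place in the genome that aligned over 30 nt or more at 80% identity (E-value up to 1e-05). GALNTL6 had 284 such places, the best at 94.8% identity, and no peak of any list lay on them. No word of 30 nt in any of the 3 recurred in the genome.

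The longest word that INSIG2 and C3orf85 shared had 10 nt (GGAAGAGCAC), and all 3 sites shared the 8 nt within it (GAAGAGCA). C3orf85 holds the word on the plus strand and INSIG2 and GALNTL6 on the minus strand, which is why the printed INSIG2 and GALNTL6 sequences show its reverse complement. Read in the direction of the word, its first base stood 1 nt past the middle of the peak at INSIG2 and 4 nt past it at C3orf85, and the 8-nt word began 7 nt past the middle at GALNTL6. The middle of a peak of this width is the place of the called crosslink. For INSIG2, whose peak of 102 nt has 2 middle bases, the count starts at the first of them in the direction of reading.

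The 10-nt word was rare in the lists. It occurred in 4 peaks of the galactose list (1.19%), 3 of the low glucose list (0.62%) and 5 of the normal glucose list (1.01%). INSIG2 and C3orf85 are among these in every list. The remaining ones were HAUS7 and ZNF609 in galactose, SLC25A21 in low glucose, and HAUS7, SLC25A21 and NCAPG2 in normal glucose. At HAUS7, SLC25A21 and NCAPG2 the word again began 1 nt past the middle, and at ZNF609 it began 17 nt past it. The 8-nt word occurred in 6 peaks of the galactose list (1.78%), 5 of the low glucose list (1.03%) and 8 of the normal glucose list (1.62%). Besides the genes above, these were peaks of GALNTL6 and of the gene ENSG00000287264 in every list and of H2AJ in normal glucose. At ZNF609 the 8-nt word also began 1 nt past the middle. The genes outside the 9 were picked after their values were seen, because they hold the word.

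Over the 36 pairs of sites the longest shared word ran between 5 and 10 nt. Only 2 pairs reached 10 nt, INSIG2 with C3orf85 and PDE3A with ANKRD30BL. C3orf85 and GALNTL6 shared a further word of 8 nt. Words of this length were also shared between the 2 kinds of site. C3orf85 shared 8 nt with UNC45B and with ANKRD30BL, INSIG2 shared 8 nt with HFM1 and 9 nt with PID1. A word of 8 nt shared by 2 sites is therefore not particular to the 3 sites without rRNA-like sequence. These pairs do not show how often 3 sites hold the same word, or hold it near the middle. The letters of the 10-nt word also occur in a sequencing adapter in common use. At INSIG2 and C3orf85 some of the bases next to the word are those of that adapter too. The adapter of these libraries is not given in the sources used here, and whether it has a part in these peaks was not tested.

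Position agreed to the base for most sites. In 6 of the 9 (66.7%, Clopper-Pearson interval 29.9 to 92.5%) a peak with the same start and the same end stood in all 3 lists: HFM1, ANKRD30BL, PDE3A, INSIG2, C3orf85 and GALNTL6. Over all 105 regions with a peak in every list, 67 (63.8%) agreed in this way, and over the 96 that are not members 61 (63.5%), so the members were near the background. Of the 6, PDE3A, C3orf85 and GALNTL6 had peaks of the smallest width in the lists, 1 crosslinked base with 50 nt on both sides, INSIG2 of 102 nt, ANKRD30BL of 127 nt and HFM1 of 157 nt.

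PID1, GCNT1 and UNC45B differed between media. At PID1 the galactose peak ran from 229180897 to 229181021, the low glucose peak from 229180921 to 229181021, and normal glucose had that same peak plus another from 229180809 to 229180909. Counted 50 nt inward, the shared right end points to a crosslink at 229180971 in every list. The additional normal glucose peak matched 28S rRNA at positions 2422 to 2522 (94.1% identity over its whole length), a stretch met by 3 peaks on the 28S genes in the normal glucose list and by none in galactose or low glucose.

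At GCNT1 the 3 peaks stretched in different directions from 1 place. The galactose peak spanned 76571733 to 76571928, the low glucose peak 76571828 to 76571928 and the normal glucose peak 76571828 to 76572008. Counted 50 nt inward, the end of the galactose peak, both borders of the low glucose peak and the start of the normal glucose peak all point to 76571878. GCNT1 was the only one of the 9 sites without a border common to 1 peak of each list.

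At UNC45B the galactose peak was 1 nt longer than the peak of both glucose lists, with the same start. Low glucose held a neighbouring peak to its right and normal glucose another. These matched 28S rRNA over 84 nt at 97.6% identity (positions 1 to 84) and over 99 nt at 96% (positions 119 to 217). The stretch of the neighbouring normal glucose peak was met by 1 peak on the 28S genes in that list and by none in galactose or low glucose. The stretch of the low glucose neighbour was met by 1 galactose peak, no low glucose peak and 1 normal glucose peak.

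All 3 sites that differed were 28S-like, as was HFM1, which did not differ. Galactose and low glucose had an identical peak at 6 of the 9 sites, galactose and normal glucose at 6, and low and normal glucose at 8. Over the 96 other regions the same pairs agreed at 72, 67 and 67. With starts and ends allowed to differ by 5 nt, 7 of the 9 sites agreed, and with overlap of 50% of both peaks all 9 did, against 74 and 88 of the 96 others.

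**Figure D4:**
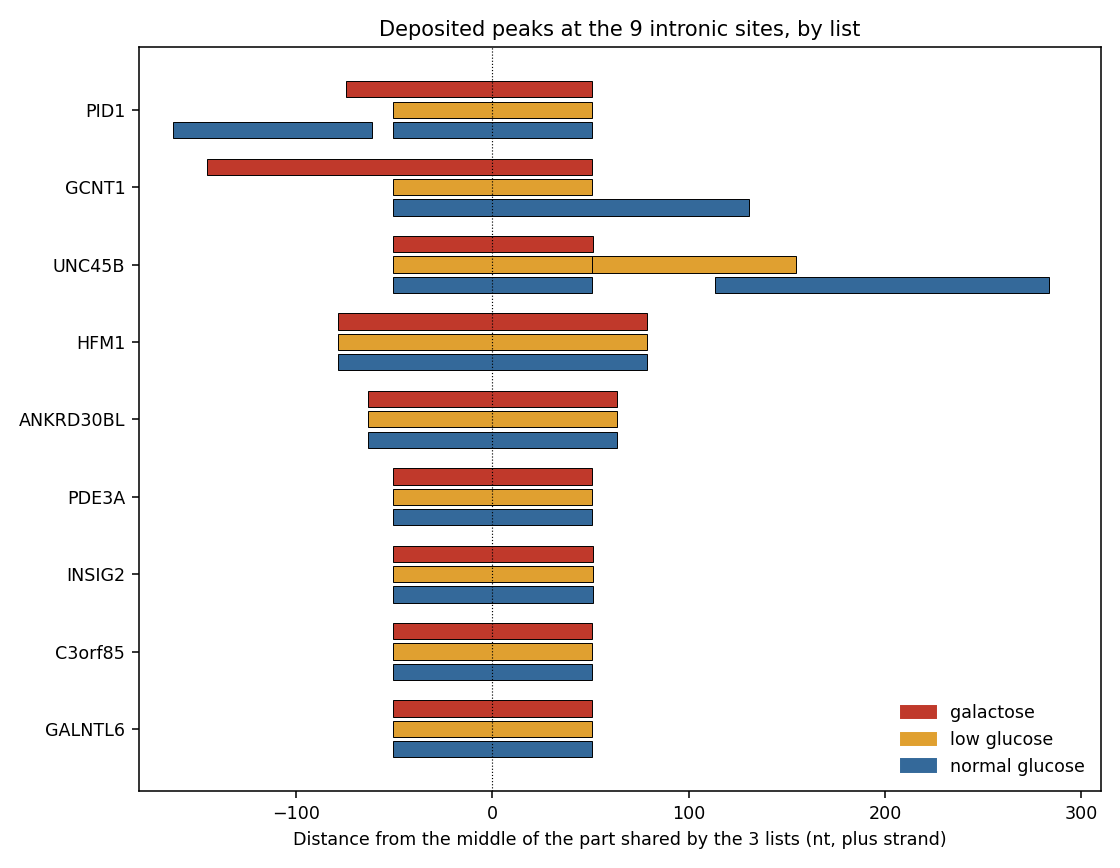
Bars are the deposited peaks of galactose, low glucose and normal glucose at each site, by distance in nt from the middle of the part they share, on the plus strand. Bars coincide for the 6 lower genes, and extend to different sides or split in PID1, GCNT1 and UNC45B.

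By GENCODE all 9 sites were intronic, and no exon of any gene on either strand overlapped a region. HFM1 (intron 4 of 38), PDE3A (1 of 15), UNC45B (4 of 19), INSIG2 (1 of 5), PID1 (1 of 2) and GALNTL6 (2 of 12) lay in introns of the canonical transcript. ANKRD30BL, C3orf85 and GCNT1 lay in an intron of 1 transcript only, without a defined coding sequence, and outside the canonical transcript. The nearest exon of the gene was between 899 nt (UNC45B) and 34659 nt (GALNTL6) from the middle of the site, and the introns were between 2669 nt (UNC45B) and 414937 nt (GALNTL6) long.

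G and C made up 74.3% of the GCNT1 site against 43.1% of its intron, 62.4% against 39.2% at PID1, 59.4% against 49.2% at UNC45B, 54.5% against 35.2% at GALNTL6 and 54.1% against 38.5% at HFM1. ANKRD30BL (42.5% against 40%), INSIG2 (42.2% against 39.5%), C3orf85 (39.6% against 41%) and PDE3A (32.7% against 35.6%) lay close to their introns. All 4 sites that matched 28S rRNA were richer in G and C than their intron by about 10 percentage points or more. Both 18S-like sites, taken whole, lay within 3 percentage points of theirs. At PDE3A the whole site includes the stretch rich in A and T that did not align, so its value is not that of the 18S-like part. The share of G and C in that part alone was not computed, so 28S-like and 18S-like sequence are not contrasted here.

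**Figure D5:**
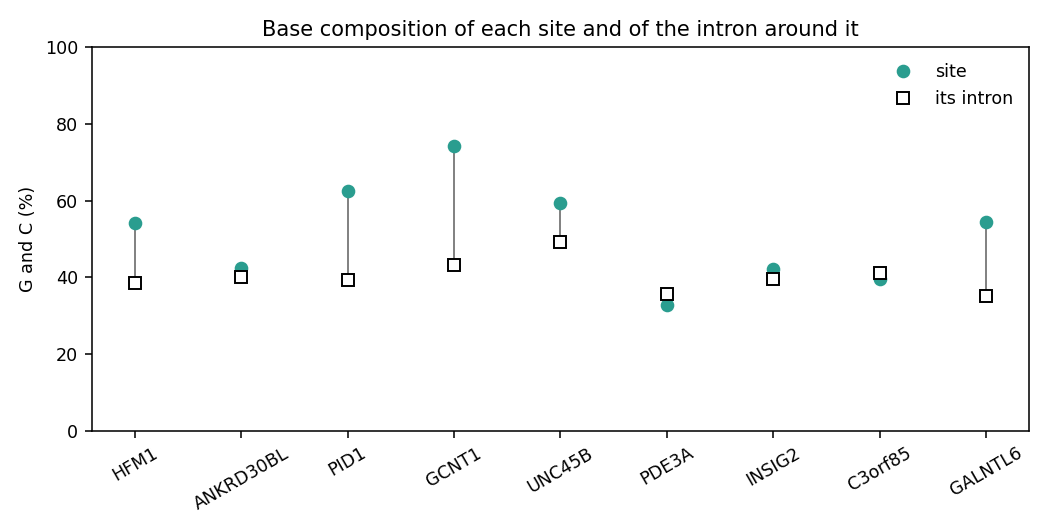
Filled circles give the percentage of G and C in each site and open squares that of the intron around it. The gap is widest at GCNT1 (74.3% against 43.1%) and small at ANKRD30BL, PDE3A, INSIG2 and C3orf85.

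How much of a site recurred exactly depended on the length of word counted. In HFM1 65.6% of the words of 30 nt occurred more than once in the genome, which made it the only site over 50%. In GCNT1 and UNC45B the share was 45.8%, in ANKRD30BL 42.9%, in PID1 41.7% and in PDE3A 27.8%. It was 0 in INSIG2, C3orf85 and GALNTL6. With words of 20 nt, 5 of the 9 sites were over 50%: UNC45B (79.3%), HFM1 (75.4%), GCNT1 (74.4%), PID1 (61%) and ANKRD30BL (60.2%). With words of 30 nt, 18.1% of the galactose list, 13.6% of the low glucose list and 25.3% of the normal glucose list, over all peaks, were over 50%. Among the 156 intronic regions of protein coding genes off annotated structural RNA genes, 24 (15.4%) held a peak over 50%. Without the member genes it was 22 of 146 (15.1%). All these shares rest on whole peaks, while the 9 sites were scored on their shared part.

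RNase T1, used to trim the RNA, cuts after G. Of the 6 sites whose shared part is 1 base with 50 nt on both sides, GCNT1 and PID1 had a G before the middle on the strand of the gene; on the opposite strand GCNT1, PID1 and UNC45B had one, 3 of 6. Over all peaks of this width whose genes lie on the same strand, a G before the middle on the gene strand was found for 41 of 169 peaks of the galactose list (24.3%), 53 of 203 of the low glucose list (26.1%) and 167 of 266 of the normal glucose list (62.8%). On the opposite strand the shares were 25.4% for galactose, 24.6% for low glucose and 28.6% for normal glucose.

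Relatives of the member genes were absent from the lists. Of 31 genes related to 7 of the members (the other GCNT and GALNT enzymes, UNC45A, PDE3B, INSIG1, ANKRD30A, ANKRD30B and 3 helicases among them), none had a peak in any list. The share of all annotated genes with a peak was not computed, so this absence has no background beside it. The files give no depth, so no limit can be put on it.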

How the data were processed

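The deposited files hold 1 list of positions per medium (other values, such as counts or scores, were not in the lists), made by the authors from 2 joined samples each: reads were trimmed with cutadapt and aligned with STAR to hg38 (submitters' processing notes, no versions), crosslinks called with PureCLIP, nearby sites merged and isolated sites extended on both sides (study's methods). How reads that fit several places were treated is not given in the sources used here. The part of that choice in the rRNA-like peaks was not tested. The labels name an rRNA removal kit, which the study's methods give for total RNA sequencing.

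Members and lists were chosen with earlier results of these data known. All 9 members were named; the sequence of 1 site and 1 gene outside the members are not reported here. Peaks were read as 1-based with both ends included and merged where they overlapped by at least 1 nt. Each peak was searched with blastn (BLAST+ 2.17.0, E-value 0.001, no low-complexity filter) against 5687 GENCODE release 44 transcripts of structural RNAs, 443 tRNA and 12 rRNA genes of RefSeq (GRCh38.p14) and the mitochondrial genome. Genome copies (E-value 1e-05) and words were counted without alternate and fix contigs. No comparison was tested; Clopper-Pearson intervals (95%) cover counting error over regions. Methods were tested on simulated sequences and peaks.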

Additional observations from a re-analysis of the deposited data

How the results depend on the processing

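Of 22 alternative values over 7 results, 15 stayed within 1.5 times of the value given in the report. The number of regions in all 3 lists was 67 when identical borders were asked for, against 105. The number of sites with recurrent sequence was 5 with words of 20 nt and 6 where any recurring word of 30 nt sufficed, and 0 where all words had to recur, against 1. Sites with a G before the middle numbered 1 when the middle itself was read, 0 for the base after it and 1 with starts counted from 0, against 2 of 6. With canonical transcripts only, 6 of the 9 sites were intronic, and with 30 nt or a flank of 100 nt, 6 had a structural RNA match.

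No paired analysis was possible because each list joins both samples of a medium and no result comes from a test, and for the same reason leaving out a sample was not possible. Without read counts, neither the strength of a site nor the absence of a neighbouring peak from a list can be set against depth. No library of repeats was searched, so the family of the GALNTL6 sequence is not named.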
